A study of Mus musculus with 16 samples.

Results

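The 78 entries of the gene table described here are those whose symbols name a chemokine (Ccl, Cxcl, Cx3cl and Xcl, 56 entries with 39 symbols) or a chemokine receptor (Ccr, Cxcr, Cx3cr, Xcr and Ackr, 22 entries with 22 symbols), out of 25611 entries in all. RNA was sequenced from the thyroid glands of 16 female mice of a C57BL/6 background, labelled as 1 month old, in 4 groups of 4: WT(ND) and WT(LID) are wild type mice on a normal diet (ND) or a low iodide diet (LID), and Glis3-Pax8Cre(ND) and Glis3-Pax8Cre(LID) carry a floxed Glis3 (Glis3 tm2Amj) and Cre recombinase from the Pax8 locus (Pax8 tm1.1(cre)Mbu) on the same 2 diets. Cre removes exon 5 of Glis3, which encodes a transcription factor, in cells that express Pax8, in the thyroid the follicular cells. The study's methods give an age of 4 weeks, with 6 days on either diet. A LID starves the gland of iodide, and thyroid stimulating hormone rises in response. Whether the WT mice carried a floxed or a Cre allele is not stated in the sources used here. The LID response of each genotype was measured against the same genotype on the ND, and the genotypes were compared on each diet, so that every group served in 2 of these comparisons.

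Chemokines are small secreted proteins, apart from the membrane-bound Cx3cl1 and Cxcl16, that direct the migration of leukocytes through G protein-coupled receptors. One ligand often binds several receptors and one receptor several ligands. The atypical receptors Ackr1 to Ackr4 bind chemokines without G protein signalling and carry them across cells or remove them, Ackr1 mainly on the endothelium of venules and on red cells, and Ackr2 mainly on lymphatic endothelium. In a gland, chemokine transcripts come from stroma, vessels, epithelium and resident macrophages, and most receptor transcripts from leukocytes. In such bulk tissue, more cells of a type and more RNA per cell cannot be told apart.

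Sequencing gave 13892352 to 461077969 read pairs on genes for each mouse. The 3 counts that a 0 still allows, for counting error only, correspond to 0.00651 to 0.216 CPM. Levels are CPM, a gene's counts relative to the library size scaled by edgeR's TMM method, in replicates 1, 2, 3 and 4 of a group in that order. Differences are log2 fold changes with their standard error (SE) from edgeR's quasi-likelihood test. P-values were adjusted by Benjamini-Hochberg over the 16630 genes that passed its filter on low counts, and those below 0.05 were called. Glis3 counted over the whole gene was at 45.2 to 85.8 CPM in WT(ND), 85.8 to 105 in Glis3-Pax8Cre(ND), 125 to 174 in WT(LID) and 119.5 to 204 in Glis3-Pax8Cre(LID), which does not separate exon 5 from the rest and so does not check the deletion. Follicular markers marked the tissue as thyroid, with a summed level of 203569 to 307105 CPM in WT(ND).

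Some libraries stood apart. Markers of thymocytes, the developing T cells of the thymus, summed to 162 and 32.8 CPM in WT(ND) replicates 1 and 2, 2718 CPM in Glis3-Pax8Cre(ND) replicate 4, 236 CPM in WT(LID) replicate 3 and 357 CPM in Glis3-Pax8Cre(LID) replicate 4, against 4.69 to 14.2 CPM in the other 11. Of the 10 thymocyte markers, Ptcra, Rag1 and Rag2 were at 0 in at least 1 mouse and none in all mice. Of the chemokine genes with a known place in the thymus, Ccr9 followed these libraries and Ccl25 did so only in part. Ccr9, a receptor of thymocytes, was at 11.7, 1.54, 0.396 and 0.685 CPM in WT(ND), 0.188, 0.327, 0.433 and 224 in Glis3-Pax8Cre(ND), 0.248, 0.143, 17.1 and 0.180 in WT(LID) and 0.233, 0.0813, 0.272 and 23.9 in Glis3-Pax8Cre(LID). Its high values were in the same libraries as the thymocyte markers, on both diets and in both genotypes. Ccl25, its ligand, which is made by thymic epithelium, reached 96.1 CPM in Glis3-Pax8Cre(ND) replicate 4 against 1.54 to 29.3 CPM in the others. Its next highest value, 29.3 CPM, was in WT(ND) replicate 4, where the thymocyte markers summed to only 8.89 CPM. In Glis3-Pax8Cre(ND) replicate 4, 9 of the 46 tested members exceeded 3 times the next highest library, namely Ccr9, Ccr7, Ccr4, Ccr8, Ccl22, Ccl25, Ccl5, Cxcr4 and Xcl1, and no member did so in another library. Ccr7, which guides T cells and dendritic cells, was at 18.1 CPM there against 0.313 to 1.26 CPM elsewhere, and Ccl22, a ligand of Ccr4, at 17.0 CPM against 0.235 to 1.88 CPM. Of these 9 members only Ccl5 was called in any comparison. The 11 libraries of low thymocyte RNA were therefore also fitted on their own, a choice made after seeing the data, and that value stands beside each call that it ended. They are replicates 3 and 4 of WT(ND), 1, 2 and 4 of WT(LID), and 1, 2 and 3 of both Glis3-Pax8Cre groups. With fewer mice a call can end at an unchanged fold, so a lost call does not tie a difference to thymus RNA.

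**Figure D1:**
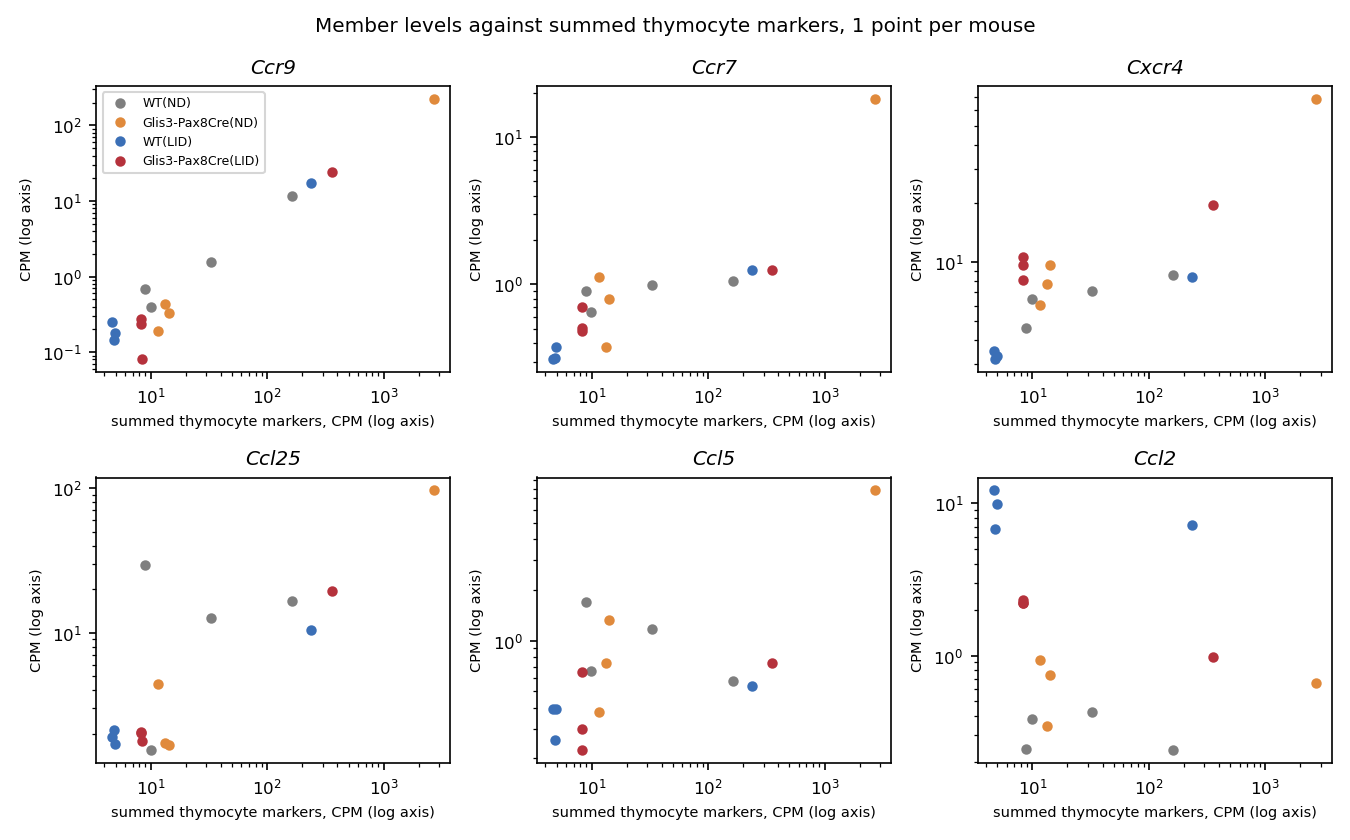
Level in CPM of 6 members (vertical, log axis) against the summed thymocyte markers in CPM (horizontal, log axis), with 1 point per mouse coloured by group. Ccr9 lies highest in the 4 mice with the highest marker sums, while Ccl2 separates WT(LID), at 6.79 to 12.1 CPM, from the other groups whatever the marker sum.

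Of the 78 entries, 46 had enough counts to be tested, 27 ligands and 19 receptors. The 22 entries of 5 repeated symbols, Ccl19, Ccl21a, Ccl21b, Ccl21c and Ccl27b, are near-identical copies, and none held more than 1 count in a library. Reads that fit several copies are not counted by default in the authors' counting, so these values do not give the levels of the genes. The other 10 untested members, Ccl1, Ccl20, Ccl26, Ccr3, Ccr6, Cxcl15, Cxcl2, Cxcl3, Cxcl5 and Cxcr1, had at most 112 counts in a library. Per kb of exon, Cxcl13 had the highest level of all ligands in WT(ND), 34.1 ± 5.26 CPM per kb (SD, n = 4), followed by Cxcl12 with 27.7 ± 1.998 and Cx3cl1 with 19.4 ± 2.497. In Glis3-Pax8Cre(LID) Cxcl12 was first with 36.0 ± 2.10 CPM per kb, and Cxcl17 was second with 12.4 ± 3.95. Among receptors Ackr3 led in WT(ND) with 8.56 ± 1.95 CPM per kb, followed by Ackr1 with 5.80 ± 1.12 and Cx3cr1 with 3.98 ± 0.550. The spreads of Ackr3 and Ackr1 did not overlap in WT(LID), at 32.8 ± 4.77 and 9.57 ± 0.581 CPM per kb.

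In WT thyroids the LID raised 13 of the 46 tested members (20.9% of all genes were called higher) and lowered 11 (20.8% were called lower). Those that rose were the ligands Ccl2, Ccl6, Ccl7, Ccl8, Ccl9, Ccl12, Ccl17, Cxcl12 and Cxcl17 and the receptors Ackr1, Ackr2, Ackr3 and Ccr1. Those that fell were Ccl11, Ccl27a, Cx3cl1, Cxcl10, Cxcl11, Cxcl13, Cxcl14, Cxcl16, Cx3cr1, Cxcr3 and Xcr1. In Glis3-Pax8Cre thyroids the LID raised 4 members (background 13.1%), Ackr3, Ccl2, Ccl7 and Cxcl17, and lowered 14 (background 12.3%). The median log2 fold change of the members was -0.54 in WT and -0.74 in Glis3-Pax8Cre, against -0.03 for all genes in each. The interaction, the LID response of Glis3-Pax8Cre minus that of WT, was called lower for 11 members (background 7.41%) and higher for 1, Cxcl16 (background 4.43%). Its median was -0.44 for the members and -0.01 for all genes.

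Between genotypes under the LID, 3 members stood higher in Glis3-Pax8Cre(LID) (background 14.9%), Ccl8, Cxcl16 and Cxcl17, and 11 were lower (background 15.4%). On the ND 8 were higher in Glis3-Pax8Cre(ND) (background 10.3%), Ccl2, Ccl7, Ccl8, Ccl9, Ccl12, Ccr1, Cxcl12 and Cxcl17, and 3 were lower (background 9.25%), Cx3cl1, Cxcl11 and Cxcl13. When only the 8 mice on the ND were fitted, the calls of Ccl2, Ccl7, Ccl9, Ccr1, Cxcl12 and Cx3cl1 were lost (edgeR's adjusted p from 0.0649 to 0.115). Median log2 fold changes were -0.02 under the LID and 0.42 on the ND, against 0.01 and 0.02 for all genes. Without Glis3-Pax8Cre(ND) replicate 4, in which 18 of the 46 tested members were at their highest, the ND median of the members was -0.06 and that of the LID response in Glis3-Pax8Cre was -0.38. By the study's own thresholds, an adjusted p below 0.01 with more than 2-fold change, 10 members rose and 6 fell in WT under the LID (backgrounds 7.68% and 4.8%), and 4 rose and 4 fell in Glis3-Pax8Cre (2.93% and 2.07%). At those thresholds 1 was higher and 6 lower in the LID mice of Glis3-Pax8Cre against WT (2.92% and 5.02%), 3 were higher and 2 lower on the ND (2.29% and 1.86%), and the interaction had 0 higher and 6 lower (0.74% and 2.89%). Several of the shares lie near their backgrounds, and the counts are not a result about the family as a whole.

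**Figure D2:**
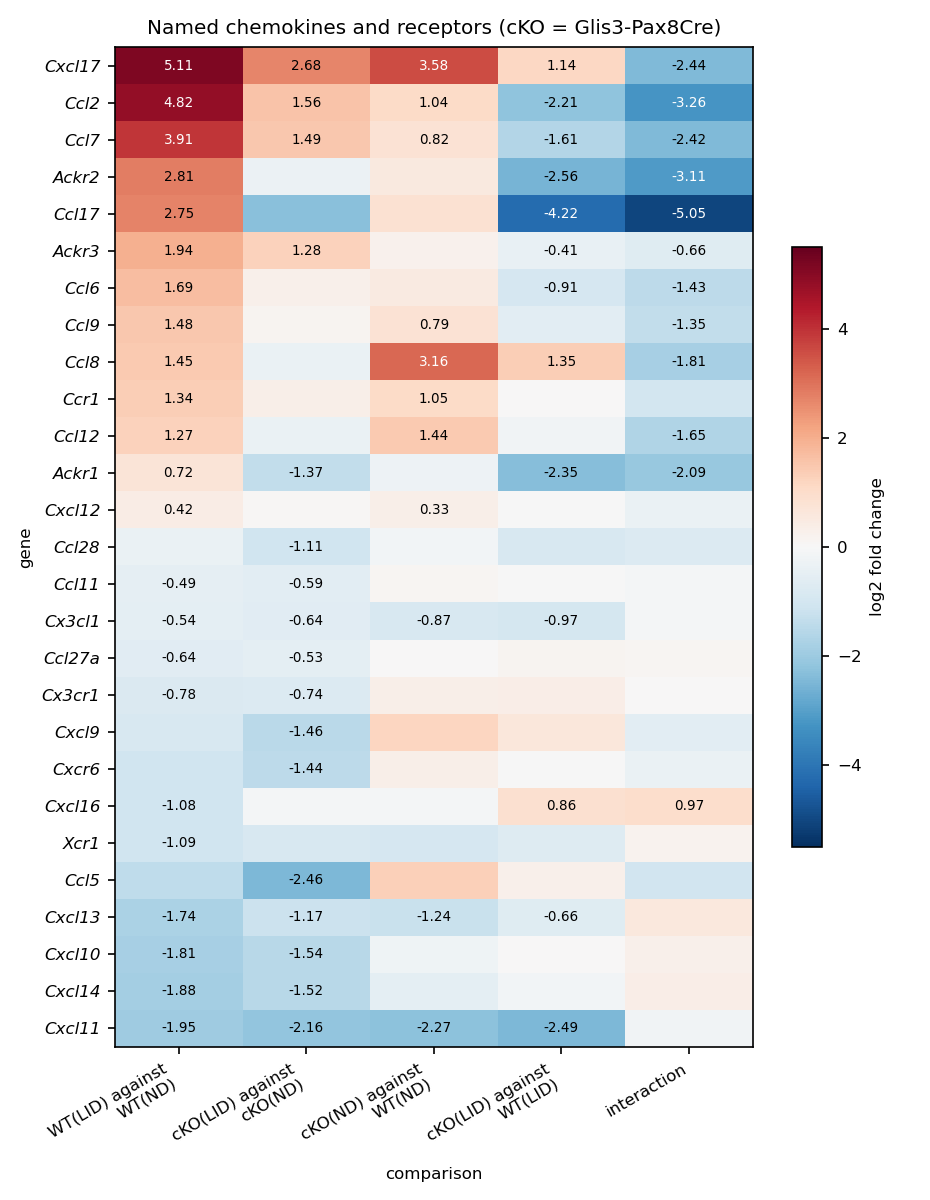
Log2 fold changes (colour scale) of 27 members with a call in at least 1 comparison and a mean of 1 CPM or more in a group (rows, italic) in the 5 comparisons (columns, cKO stands for Glis3-Pax8Cre). Cells with an adjusted p under 0.05 carry their value. Of the rows at the top, Cxcl17, Ccl2 and Ccl7 rose under the LID in both genotypes, and Cxcl11, in the bottom row, was lower in each of the 4 comparisons.

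Of the ligands of Ccr2, which draws monocytes into tissue, Ccl2 rose most under the LID and less in Glis3-Pax8Cre than in WT. Ccl2 was at 0.238, 0.425, 0.381 and 0.245 CPM in WT(ND), 0.941, 0.750, 0.343 and 0.660 in Glis3-Pax8Cre(ND), 12.1, 6.79, 7.17 and 9.94 in WT(LID) and 2.23, 2.33, 2.22 and 0.984 in Glis3-Pax8Cre(LID). All WT(LID) mice lay above all Glis3-Pax8Cre(LID) mice, and these above all mice on the ND. The log2 fold change under the LID was 4.82 (SE 0.37, adjusted p = 1.42e-07) in WT and 1.56 (SE 0.33, adjusted p = 0.00337) in Glis3-Pax8Cre. Between genotypes it was -2.21 (SE 0.32, adjusted p = 0.000101) under the LID, with an interaction of -3.26 (SE 0.47, adjusted p = 0.000330). On the ND Ccl2 was higher in Glis3-Pax8Cre(ND), by 1.04 (SE 0.34, adjusted p = 0.0438), with overlapping groups. That call was lost in the 11 libraries of low thymocyte RNA (1.11, adjusted p = 0.118) and without replicate 1 or 4 of WT(ND), replicate 1, 2 or 4 of Glis3-Pax8Cre(ND), replicate 4 of WT(LID) or replicate 1 or 3 of Glis3-Pax8Cre(LID) (0.90 to 1.04, adjusted p from 0.0516 to 0.124).

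Ccl7, which lies beside Ccl2 on chromosome 11 and also binds Ccr2 and Ccr1, had the same order of groups under the LID. Ccl7 was at 0.266, 0.352, 0.410 and 0.261 CPM in WT(ND), 0.627, 0.405, 0.469 and 0.785 in Glis3-Pax8Cre(ND), 5.25, 3.82, 3.92 and 6.27 in WT(LID) and 1.55, 1.77, 1.88 and 1.11 in Glis3-Pax8Cre(LID). All LID mice lay above all ND mice. The LID changed Ccl7 by 3.91 (SE 0.28, adjusted p = 6.37e-08) on the log2 scale in WT and by 1.49 (SE 0.26, adjusted p = 0.000789) in Glis3-Pax8Cre. Glis3-Pax8Cre(LID) differed from WT(LID) by -1.61 (SE 0.25, adjusted p = 0.000159), lower without overlap, and the interaction was -2.42 (SE 0.36, adjusted p = 0.000449). On the ND the difference was 0.82 (SE 0.27, adjusted p = 0.0421), a call lost in the 11 libraries of low thymocyte RNA (0.55, adjusted p = 0.323) and without replicate 1, 2 or 4 of WT(ND), replicate 1, 3 or 4 of Glis3-Pax8Cre(ND), replicate 1 of WT(LID) or replicate 1 of Glis3-Pax8Cre(LID) (0.59 to 0.90, adjusted p from 0.0501 to 0.137). Ccr2 itself was at 6.56 to 15.1 CPM in WT(ND), 9.24 to 13.4 in Glis3-Pax8Cre(ND), 13.4 to 21.7 in WT(LID) and 7.70 to 20.9 in Glis3-Pax8Cre(LID), and it passed the test in no comparison.

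Ccl12 and Ccl8, further along the same cluster, differed between genotypes on the ND. Ccl12, another ligand of Ccr2 in the mouse, was at 0.378, 0.352, 0.537 and 0.429 CPM in WT(ND), 0.816, 1.07, 0.775 and 1.91 in Glis3-Pax8Cre(ND), 1.58, 0.603, 1.06 and 0.870 in WT(LID) and 1.06, 1.09, 0.594 and 0.809 in Glis3-Pax8Cre(LID). The WT(ND) mice lay below all others. Its log2 fold change was 1.27 (SE 0.34, adjusted p = 0.00649) in WT under the LID and 1.44 (SE 0.34, adjusted p = 0.00817) between genotypes on the ND, and the interaction was -1.65 (SE 0.47, adjusted p = 0.0321). In the 11 libraries of low thymocyte RNA none of these 3 calls held (1.09, adjusted p = 0.0587, 0.91, adjusted p = 0.224 and -1.07, adjusted p = 0.295), and the interaction was also lost without replicate 1, 2 or 4 of WT(ND), replicate 4 of Glis3-Pax8Cre(ND), replicate 1 or 3 of WT(LID) or replicate 3 or 4 of Glis3-Pax8Cre(LID) (-1.67 to -1.31, adjusted p from 0.0529 to 0.0661).

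Ccl8, which in the mouse binds Ccr8, was the one CC ligand that was higher in Glis3-Pax8Cre on both diets. Ccl8 was at 0.154, 0.279, 0.198 and 0.328 CPM in WT(ND), 2.20, 2.95, 0.919 and 2.69 in Glis3-Pax8Cre(ND), 0.756, 0.660, 0.593 and 0.675 in WT(LID) and 2.62, 1.68, 1.44 and 1.12 in Glis3-Pax8Cre(LID). The WT(ND) mice were the lowest, the WT(LID) mice came next, and both Glis3-Pax8Cre groups lay above them. Between genotypes the log2 fold change was 3.16 (SE 0.37, adjusted p = 6.18e-05) on the ND and 1.35 (SE 0.34, adjusted p = 0.00714) under the LID. The LID raised Ccl8 in WT by 1.45 (SE 0.35, adjusted p = 0.00407), while the difference in Glis3-Pax8Cre was -0.36 (SE 0.33, adjusted p = 0.455). The interaction, -1.81 (SE 0.49, adjusted p = 0.0239), was lost in the 11 libraries of low thymocyte RNA (-1.43, adjusted p = 0.189) and without replicate 2 of Glis3-Pax8Cre(ND) (-1.62, adjusted p = 0.0528). Ccr8 did not exceed 0.211 CPM outside Glis3-Pax8Cre(ND) replicate 4.

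Ccl6 and Ccl9, rodent ligands of Ccr1, rose together in WT under the LID, and so did Ccr1, a receptor of monocytes, macrophages and neutrophils. Ccl6 was at 5.23, 8.57, 5.57 and 6.78 CPM in WT(ND), 12.5, 9.74, 7.43 and 7.80 in Glis3-Pax8Cre(ND), 28.8, 14.8, 15.7 and 24.7 in WT(LID) and 13.7, 12.0, 9.31 and 9.67 in Glis3-Pax8Cre(LID). Every WT(LID) mouse was above every other mouse. Its log2 fold change was 1.69 (SE 0.24, adjusted p = 5.58e-05) in WT, 0.26 (SE 0.24, adjusted p = 0.444) in Glis3-Pax8Cre and -0.91 (SE 0.24, adjusted p = 0.00805) between genotypes under the LID, with an interaction of -1.43 (SE 0.33, adjusted p = 0.0114). Ccl6 overlaps the gene E230016K23Rik on the opposite strand, and reads of the 2 cannot be told apart in an unstranded count.

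Ccl9 was at 5.21, 9.56, 7.86 and 5.68 CPM in WT(ND), 16.6, 11.01, 11.1 and 10.3 in Glis3-Pax8Cre(ND), 24.6, 16.2, 15.8 and 22.5 in WT(LID) and 14.7, 15.3, 11.9 and 11.6 in Glis3-Pax8Cre(LID). The 4 WT(ND) mice were below all others. On the log2 scale the change was 1.48 (SE 0.21, adjusted p = 6.41e-05) in WT under the LID and 0.79 (SE 0.21, adjusted p = 0.0181) between genotypes on the ND, and the latter was lost without replicate 1 or 4 of WT(ND) or replicate 1 of Glis3-Pax8Cre(ND) (0.61 to 0.70, adjusted p from 0.0533 to 0.0612). The interaction was -1.35 (SE 0.30, adjusted p = 0.00840). Between genotypes under the LID the value was -0.56 (SE 0.21, adjusted p = 0.0554). It passed the threshold in 10 of 26 alternatives, DESeq2 among them (-0.56, adjusted p = 0.0332). Ccr1 was at 0.827, 2.23, 2.11 and 1.51 CPM in WT(ND), 4.77, 2.74, 3.26 and 3.14 in Glis3-Pax8Cre(ND), 5.64, 3.57, 3.47 and 4.23 in WT(LID) and 6.57, 3.22, 4.23 and 3.18 in Glis3-Pax8Cre(LID). Again the WT(ND) mice were lowest. The change in log2 was 1.34 (SE 0.31, adjusted p = 0.00264) in WT under the LID and 1.05 (SE 0.31, adjusted p = 0.0278) between genotypes on the ND, a call lost in the 11 libraries of low thymocyte RNA (0.97, adjusted p = 0.120) and without replicate 1 or 4 of WT(ND) or replicate 1 of Glis3-Pax8Cre(ND) (0.84 to 1.01, adjusted p from 0.0686 to 0.0747).

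Macrophage markers moved beside these ligands in part. Of 8 such markers, with Adgre1 and Csf1r among them, all 8 were higher in Glis3-Pax8Cre(ND) than in WT(ND), 3 rose in WT under the LID and 0 fell, and 5 fell in Glis3-Pax8Cre under the LID. Their summed level was 203 to 307 CPM in WT(ND), 352 to 414 in Glis3-Pax8Cre(ND), 272 to 300.3 in WT(LID) and 249 to 339 in Glis3-Pax8Cre(LID), and none was at 0 in any mouse. Of 4 monocyte markers, F13a1 and Vcan rose in WT under the LID and Plac8 fell. In Glis3-Pax8Cre Vcan rose and Ly6c2 fell. The interaction was called lower for F13a1 and Vcan, and the genotype difference under the LID for Vcan. Monocyte markers summed to 34.6 to 52.0 CPM in WT(ND) and 48.4 to 77.0 CPM in Glis3-Pax8Cre(ND). On the LID the sums were 74.5 to 103.6 CPM for WT and 58.8 to 73.8 CPM for Glis3-Pax8Cre. The macrophage sums of the LID groups overlapped. Their monocyte sums were only narrowly apart, the lowest WT sum being 74.5 CPM and the highest Glis3-Pax8Cre sum 73.8 CPM. Between these groups Vcan alone of the 4 monocyte markers was called, with means of 27.9 CPM for WT and 11.9 CPM for Glis3-Pax8Cre. The uncalled markers had means, in that order, of 51.4 and 44.0 CPM for F13a1, 8.99 and 8.61 CPM for Plac8, and 0.344 and 0.207 CPM for Ly6c2. The part of these cells in the chemokine differences was not tested.

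**Figure D3:**
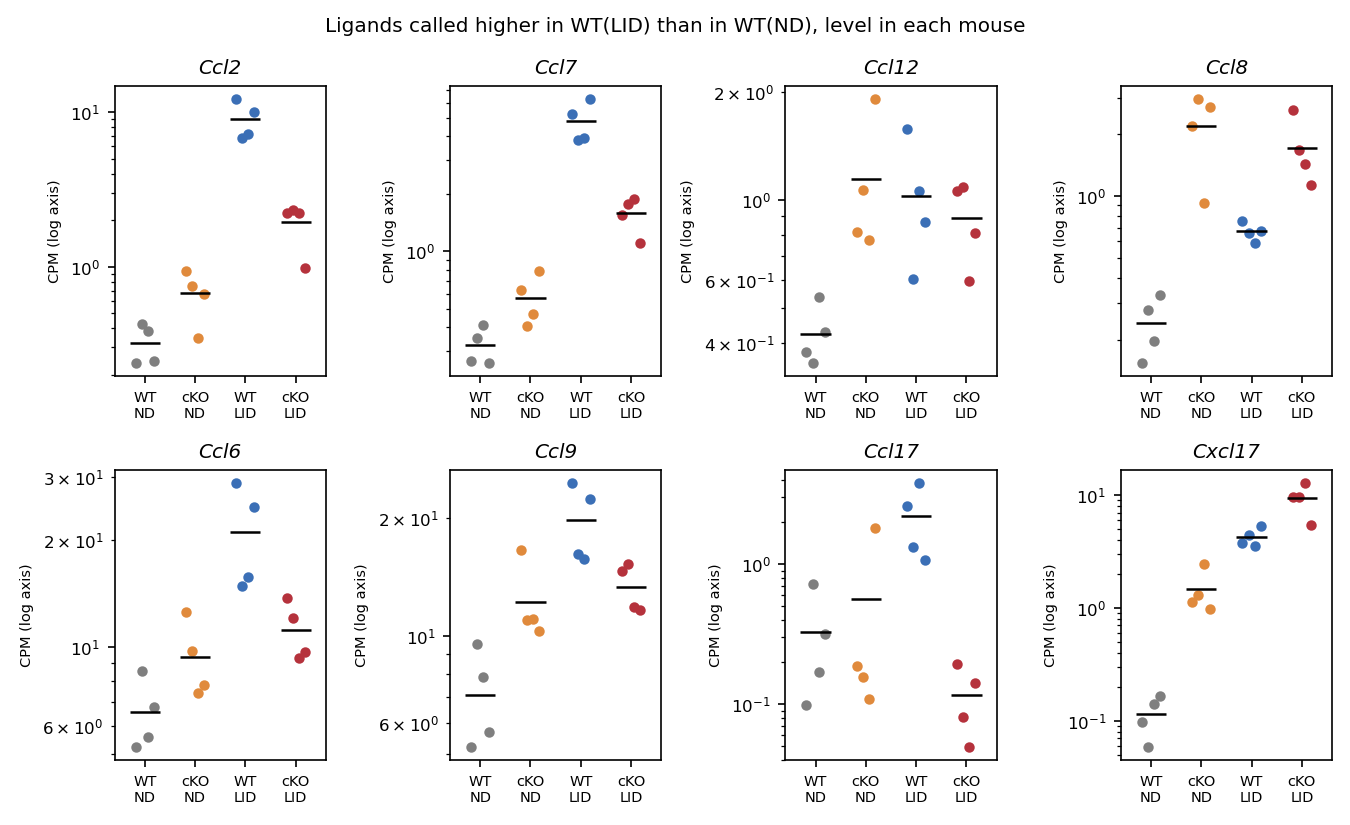
Level in CPM (vertical, log axis) of 8 ligands called higher in WT(LID) than in WT(ND), in each mouse (points) with the arithmetic mean of a group (line), cKO being Glis3-Pax8Cre. WT(LID) is the highest group for Ccl2, Ccl7, Ccl6, Ccl9 and Ccl17, whereas Glis3-Pax8Cre(LID) is the highest for Cxcl17, at 5.48 to 12.8 CPM.

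Ccl17, a ligand of Ccr4, rose in WT under the LID and stayed lower in Glis3-Pax8Cre(LID). Ccl17 was at 0.0981, 0.719, 0.170 and 0.319 CPM in WT(ND), 0.188, 0.157, 0.108 and 1.80 in Glis3-Pax8Cre(ND), 2.59, 1.33, 3.79 and 1.06 in WT(LID) and 0.194, 0.0813, 0.0495 and 0.141 in Glis3-Pax8Cre(LID). All WT(LID) mice were above 1 CPM, and outside them only Glis3-Pax8Cre(ND) replicate 4, the library with the most thymocyte RNA, was. As a log2 fold change, the difference was 2.75 (SE 0.84, adjusted p = 0.0166) in WT under the LID and -4.22 (SE 0.93, adjusted p = 0.00324) between genotypes under the LID, both without overlap. In Glis3-Pax8Cre it was -2.30 (SE 0.92, adjusted p = 0.0794) under the LID, passed the threshold with DESeq2 (-2.29, adjusted p = 0.0221) and was -0.33 (adjusted p = 0.778) without that library. The interaction of -5.05 (SE 1.24, adjusted p = 0.0161) was -3.11 (adjusted p = 0.0338) in the 11 libraries of low thymocyte RNA and -3.09 (adjusted p = 0.0357) without that library alone. Without WT(ND) replicate 2 it was -5.70 (adjusted p = 0.0128), and the WT response was 3.40 (adjusted p = 0.0109). The levels are low, and in Glis3-Pax8Cre(LID) 2 of 4 mice were under 0.1 CPM.

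Cxcl17, a chemokine of mucosal surfaces, was higher in each comparison with WT(ND) as control, and it was higher still in Glis3-Pax8Cre(LID). Cxcl17 was at 0.0981, 0.0587, 0.141 and 0.164 CPM in WT(ND), 1.13, 1.30, 2.45 and 0.981 in Glis3-Pax8Cre(ND), 3.75, 4.46, 3.58 and 5.32 in WT(LID) and 9.74, 9.75, 12.8 and 5.48 in Glis3-Pax8Cre(LID). No group overlapped another. edgeR's log2 fold change under the LID was 5.11 (SE 0.38, adjusted p = 1.11e-07) in WT and 2.68 (SE 0.33, adjusted p = 5.01e-05) in Glis3-Pax8Cre. Between genotypes it was 3.58 (SE 0.37, adjusted p = 2.22e-05) on the ND and 1.14 (SE 0.31, adjusted p = 0.0110) under the LID, with an interaction of -2.44 (SE 0.47, adjusted p = 0.00310). Markers of lung and airway epithelium summed to 3.12 to 40.4 CPM in WT(ND), 21.6 to 46.7 in Glis3-Pax8Cre(ND), 6.97 to 8.85 in WT(LID) and 182 to 218 in Glis3-Pax8Cre(LID). The sum is mostly Sftpb, with a mean of 195 CPM in Glis3-Pax8Cre(LID) and 4.85 CPM in WT(LID). Of the others, Scgb1a1 was also highest in Glis3-Pax8Cre(LID), while the mean of Sftpc was highest in WT(ND) and that of Foxj1 in WT(LID). Of the 4 markers only Scgb1a1 was at 0 in a mouse. Their part in the difference was not tested. Cxcl17 overlaps 4732471J01Rik on the opposite strand.

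The atypical receptors Ackr1 and Ackr2 rose in WT under the LID and were lower in Glis3-Pax8Cre(LID). Ackr1 was at 10.4, 7.75, 7.86 and 6.65 CPM in WT(ND), 6.96, 8.31, 6.87 and 5.07 in Glis3-Pax8Cre(ND), 12.3, 14.1, 13.9 and 13.4 in WT(LID) and 2.03, 3.27, 2.66 and 2.60 in Glis3-Pax8Cre(LID). The WT(LID) mice were the highest and the Glis3-Pax8Cre(LID) mice the lowest, without overlap with any other group. The fitted log2 difference under the LID was 0.72 (SE 0.17, adjusted p = 0.00300) in WT and -1.37 (SE 0.17, adjusted p = 6.63e-05) in Glis3-Pax8Cre, opposite directions that gave an interaction of -2.09 (SE 0.24, adjusted p = 5.53e-05). Between genotypes under the LID it was -2.35 (SE 0.18, adjusted p = 2.14e-07).

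Ackr2, a scavenger of inflammatory CC chemokines such as Ccl2, was at 0.813, 1.09, 0.551 and 0.589 CPM in WT(ND), 1.76, 1.36, 0.973 and 0.464 in Glis3-Pax8Cre(ND), 5.98, 4.35, 5.18 and 5.65 in WT(LID) and 1.13, 0.846, 1.03 and 0.580 in Glis3-Pax8Cre(LID). Each WT(LID) mouse was above 4 CPM and each other mouse below 2 CPM. The log2 fold change was 2.81 (SE 0.34, adjusted p = 1.39e-05) in WT under the LID and -2.56 (SE 0.34, adjusted p = 4.38e-05) between genotypes under the LID, and the interaction was -3.11 (SE 0.47, adjusted p = 0.000501). In Glis3-Pax8Cre the value was -0.31 (SE 0.33, adjusted p = 0.527). These calls of Ackr1 and Ackr2 held in all alternatives in which they could be fitted.

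Ackr3, a scavenger of Cxcl12 on endothelium and other cells, rose in both genotypes. Ackr3 was at 24.5, 38.3, 27.0 and 24.7 CPM in WT(ND), 42.3, 32.6, 32.2 and 29.5 in Glis3-Pax8Cre(ND), 125, 97.9, 94.6 and 122 in WT(LID) and 80.8, 78.0, 85.4 and 86.9 in Glis3-Pax8Cre(LID). All LID mice lay above all ND mice. The log2 fold change under the LID was 1.94 (SE 0.15, adjusted p = 1.64e-07) in WT and 1.28 (SE 0.15, adjusted p = 2.81e-05) in Glis3-Pax8Cre. Between genotypes under the LID it was -0.41 (SE 0.15, adjusted p = 0.0442), which was lost without replicate 2 or 3 of Glis3-Pax8Cre(ND), replicate 1 or 4 of WT(LID) or replicate 1, 2, 3 or 4 of Glis3-Pax8Cre(LID) (-0.43 to -0.35, adjusted p from 0.0519 to 0.123). The interaction of -0.66 (SE 0.21, adjusted p = 0.0499) was as close to the threshold and was lost without replicate 1, 3 or 4 of WT(ND), replicate 1, 2 or 3 of Glis3-Pax8Cre(ND), replicate 1, 2 or 4 of WT(LID) or replicate 1, 2, 3 or 4 of Glis3-Pax8Cre(LID) (-0.73 to -0.54, adjusted p from 0.0520 to 0.103). Both were also lost with library size alone as the scaling (-0.27, adjusted p = 0.241 and -0.64, adjusted p = 0.119).

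Endothelial markers moved in the same direction as Ackr1 and Ackr2 in WT under the LID, between genotypes under the LID and in the interaction. All 5 rose in WT under the LID, 4 of 5 were lower in Glis3-Pax8Cre(LID) against WT(LID), and all 5 were called lower in the interaction. Their sum was 459 to 579.6 CPM in WT(ND), 598 to 832 in Glis3-Pax8Cre(ND), 1225 to 1390.0 in WT(LID) and 552 to 712 in Glis3-Pax8Cre(LID). Of 4 lymphatic endothelial markers 3 rose in WT under the LID and 2 were lower in Glis3-Pax8Cre(LID), with a sum of 41.7 to 43.5 CPM in WT(ND), 42.4 to 71.6 in Glis3-Pax8Cre(ND), 101 to 121 in WT(LID) and 48.5 to 73.0 in Glis3-Pax8Cre(LID). On the ND, Emcn and Kdr of the first list and Flt4 and Lyve1 of the second were called higher in Glis3-Pax8Cre(ND). Neither Ackr1 nor Ackr2 was called there. No marker of either list was at 0 in a mouse. In Glis3-Pax8Cre under the LID 2 of 5 endothelial markers fell, Pecam1 and Tek. The ranges of the sum of all 5 on the 2 diets overlapped in that genotype. The part of these cells in the receptor differences was not tested.

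**Figure D4:**
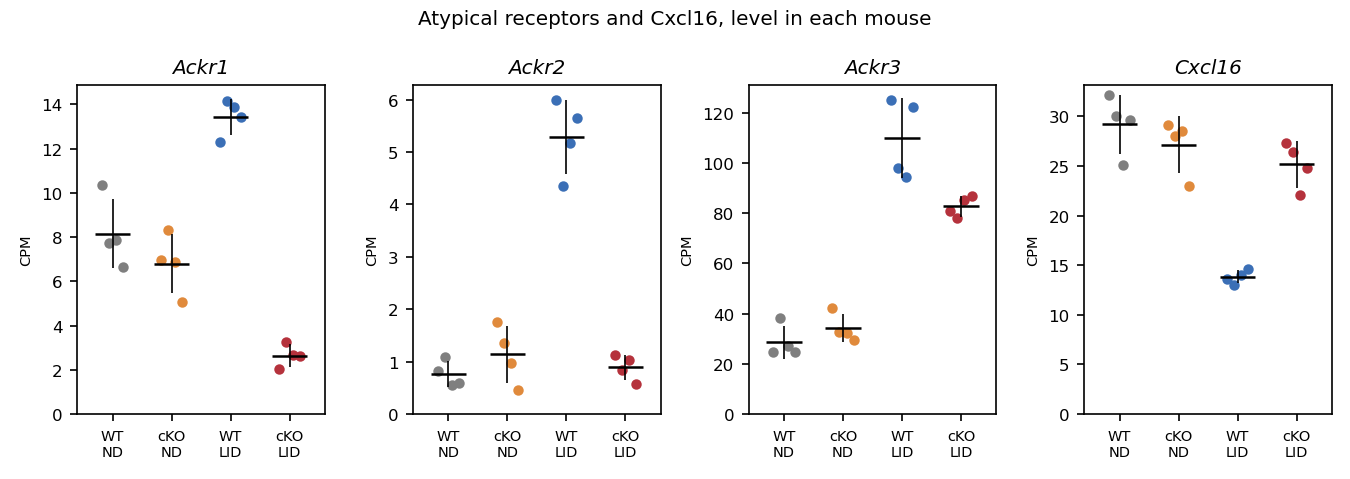
Level in CPM (vertical, linear axis from 0) of Ackr1, Ackr2, Ackr3 and Cxcl16 in each mouse (points), with the mean (horizontal line) and SD (vertical line) of the 4 mice of a group, cKO being Glis3-Pax8Cre. Ackr2 stands at 4.35 to 5.98 CPM in WT(LID) and below 2 CPM elsewhere, and Cxcl16 at 13.04 to 14.7 CPM in WT(LID) and at 22.0 CPM or more elsewhere.

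Cxcl16, a membrane-bound ligand of Cxcr6, showed the opposite pattern and was the one member with a higher interaction. Cxcl16 was at 32.1, 30.01, 25.1 and 29.7 CPM in WT(ND), 29.2, 28.0, 28.5 and 23.0 in Glis3-Pax8Cre(ND), 13.6, 13.04, 14.02 and 14.7 in WT(LID) and 27.3, 26.4, 22.0 and 24.8 in Glis3-Pax8Cre(LID). The WT(LID) mice lay below all others, and the other 3 groups overlapped. The log2 change was -1.08 (SE 0.10, adjusted p = 7.64e-07) in WT and -0.11 (SE 0.10, adjusted p = 0.430) in Glis3-Pax8Cre under the LID, 0.86 (SE 0.10, adjusted p = 1.04e-05) between genotypes under the LID and 0.97 (SE 0.14, adjusted p = 0.000298) in the interaction. Cxcl16 overlaps Zmynd15 on the opposite strand. Cxcr6, a receptor of T and NK cells, was at 0.799, 1.47, 0.989 and 1.35 CPM in WT(ND), 1.13, 0.660, 0.523 and 3.50 in Glis3-Pax8Cre(ND), 0.613, 0.474, 0.683 and 0.420 in WT(LID) and 0.505, 0.472, 0.470 and 0.703 in Glis3-Pax8Cre(LID). Its highest value was in the library with the most thymocyte RNA. In log2 terms the change in Glis3-Pax8Cre under the LID, -1.44 (SE 0.47, adjusted p = 0.0368), was lost with a replicate block in those 8 mice (-1.05, adjusted p = 0.0946, and -1.42, adjusted p = 0.128 in the same 8 without a block), in the 11 libraries of low thymocyte RNA (-0.59, adjusted p = 0.197) and without replicate 4 of Glis3-Pax8Cre(ND) or replicate 1, 2 or 3 of Glis3-Pax8Cre(LID) (-1.41 to -0.46, adjusted p from 0.0742 to 0.287), and without Glis3-Pax8Cre(ND) replicate 4 alone it was -0.46 (adjusted p = 0.287). It overlaps Fyco1 on the opposite strand.

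Cxcl12, the ligand of Cxcr4 and Ackr3, is made by stroma and had the highest CPM of all members. Cxcl12 was at 228, 221, 247 and 208 CPM in WT(ND), 250.1, 307, 324 and 254 in Glis3-Pax8Cre(ND), 295, 297, 308 and 307 in WT(LID) and 284, 304, 276 and 313 in Glis3-Pax8Cre(LID). The WT(ND) mice lay below all others. The differences were small, 0.42 (SE 0.09, adjusted p = 0.00162) in WT under the LID and 0.33 (SE 0.09, adjusted p = 0.0189) between genotypes on the ND. The latter was lost in the 11 libraries of low thymocyte RNA (0.37, adjusted p = 0.109) and without replicate 2 or 4 of WT(ND) or replicate 2 or 3 of Glis3-Pax8Cre(ND) (0.26 to 0.32, adjusted p from 0.05005 to 0.0621). Cxcr4 was at 4.61 to 8.65 CPM in WT(ND), 3.1998 to 8.41 in WT(LID) and 8.14 to 19.6 in Glis3-Pax8Cre(LID), while the Glis3-Pax8Cre(ND) mice had 6.02, 9.68, 7.75 and 68.5 CPM, and it passed no test.

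Cxcl13, which draws B cells through Cxcr5, fell under the LID in both genotypes and was lower in Glis3-Pax8Cre on both diets. Cxcl13 was at 43.0, 39.9, 30.5 and 43.6 CPM in WT(ND), 21.6, 10.3, 19.1 and 15.6 in Glis3-Pax8Cre(ND), 12.4, 12.1, 12.9 and 9.45 in WT(LID) and 5.08, 9.44, 7.60 and 7.45 in Glis3-Pax8Cre(LID). The WT(ND) mice were highest and the Glis3-Pax8Cre(LID) mice lowest, the latter below all WT(LID) mice. On the log2 scale the change under the LID was -1.74 (SE 0.22, adjusted p = 1.78e-05) in WT and -1.17 (SE 0.22, adjusted p = 0.00135) in Glis3-Pax8Cre. Between genotypes it was -1.24 (SE 0.22, adjusted p = 0.00123) on the ND and -0.66 (SE 0.21, adjusted p = 0.0286) under the LID. In the 11 libraries of low thymocyte RNA these genotype values were -1.14 (adjusted p = 0.0652) and -0.62 (adjusted p = 0.153), and the second was also lost without replicate 1, 2 or 3 of WT(LID) or replicate 1, 3 or 4 of Glis3-Pax8Cre(LID) (-0.68 to -0.52, adjusted p from 0.0517 to 0.0830) and with library size alone as the scaling (-0.51, adjusted p = 0.0721). Cxcr5 was at or below 0.464 CPM in every mouse.

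Cx3cl1, or fractalkine, and its receptor Cx3cr1, which marks some macrophages and monocytes, fell together under the LID. Cx3cl1 was at 90.5, 73.1, 72.7 and 68.3 CPM in WT(ND), 34.9, 60.0, 47.5 and 23.9 in Glis3-Pax8Cre(ND), 46.5, 53.0, 62.1 and 48.0 in WT(LID) and 23.4, 29.6, 27.8 and 26.0 in Glis3-Pax8Cre(LID). The WT(ND) mice lay above all others. Between genotypes the log2 fold change was -0.87 (SE 0.21, adjusted p = 0.00932) on the ND and -0.97 (SE 0.21, adjusted p = 0.00239) under the LID, and the ND value was -0.56 (adjusted p = 0.0886) in the 11 libraries of low thymocyte RNA. Under the LID it was -0.54 (SE 0.21, adjusted p = 0.0473) in WT, which was lost without replicate 1, 2, 3 or 4 of WT(ND), replicate 3 of Glis3-Pax8Cre(ND), replicate 1, 2 or 4 of WT(LID) or replicate 1, 2, 3 or 4 of Glis3-Pax8Cre(LID) (-0.59 to -0.44, adjusted p from 0.0523 to 0.131). The WT call was also lost with RLE in place of TMM scaling (-0.53, adjusted p = 0.0523), with Tg left out (-0.53, adjusted p = 0.0562) and without the filter on low counts (-0.54, adjusted p = 0.063). In Glis3-Pax8Cre the LID value was -0.64 (SE 0.21, adjusted p = 0.0341), lost with the replicate block in those 8 mice (-0.57, adjusted p = 0.0797, and -0.65, adjusted p = 0.124 in the same 8 without a block) and without replicate 2 or 3 of Glis3-Pax8Cre(ND) or replicate 1, 3 or 4 of Glis3-Pax8Cre(LID) (-0.66 to -0.41, adjusted p from 0.0615 to 0.127).

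Cx3cr1 was at 18.8, 16.8, 20.9 and 15.2 CPM in WT(ND), 21.8, 26.2, 24.7 and 17.6 in Glis3-Pax8Cre(ND), 7.06, 10.98, 12.9 and 10.8 in WT(LID) and 12.9, 12.1, 16.8 and 12.3 in Glis3-Pax8Cre(LID). All LID mice were below all ND mice of the same genotype. The change in log2 under the LID was -0.78 (SE 0.18, adjusted p = 0.00236) in WT and -0.74 (SE 0.18, adjusted p = 0.00697) in Glis3-Pax8Cre, and both calls held in all alternatives.

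The ligands of Cxcr3, a receptor of activated T and NK cells, are induced by interferon, and of these Cxcl10 and Cxcl11 fell under the LID in both genotypes. Cxcl11 was at 3.41, 2.16, 1.09 and 2.52 CPM in WT(ND), 0.565, 0.527, 0.288 and 0.535 in Glis3-Pax8Cre(ND), 0.991, 0.617, 0.395 and 0.360 in WT(LID) and 0.0777, 0.0976, 0.0619 and 0.193 in Glis3-Pax8Cre(LID). Both genotypes fell under the LID without overlap, and Glis3-Pax8Cre was lower on both diets. As a log2 fold change, the difference was -1.95 (SE 0.40, adjusted p = 0.00114) in WT and -2.16 (SE 0.46, adjusted p = 0.00345) in Glis3-Pax8Cre under the LID, -2.27 (SE 0.41, adjusted p = 0.00165) between genotypes on the ND and -2.49 (SE 0.45, adjusted p = 0.000663) under the LID. Cxcl10 was at 6.95, 7.32, 1.30 and 6.13 CPM in WT(ND), 3.83, 3.69, 2.49 and 8.28 in Glis3-Pax8Cre(ND), 1.69, 1.29, 1.78 and 1.41 in WT(LID) and 1.23, 1.77, 1.21 and 2.11 in Glis3-Pax8Cre(LID). In WT(ND) replicate 3 it was as low as under the LID. edgeR's log2 fold change was -1.81 (SE 0.45, adjusted p = 0.00459) in WT and -1.54 (SE 0.45, adjusted p = 0.0212) in Glis3-Pax8Cre, and the latter was lost in the 11 libraries of low thymocyte RNA (-1.24, adjusted p = 0.0735) and without replicate 4 of Glis3-Pax8Cre(ND) or replicate 1 or 3 of Glis3-Pax8Cre(LID) (-1.43 to -1.08, adjusted p from 0.0548 to 0.0676). Cxcl10 and Cxcl11 overlap Art3 on the opposite strand.

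Cxcl9 was at 0.603, 1.53, 0.650 and 2.32 CPM in WT(ND), 1.82, 2.11, 1.71 and 6.08 in Glis3-Pax8Cre(ND), 0.600, 0.631, 0.593 and 0.960 in WT(LID) and 1.44, 1.07, 0.681 and 1.09 in Glis3-Pax8Cre(LID). Its highest value was in Glis3-Pax8Cre(ND) replicate 4. The fall in Glis3-Pax8Cre under the LID, -1.46 (SE 0.47, adjusted p = 0.0337), was lost in the 11 libraries of low thymocyte RNA (-0.83, adjusted p = 0.186) and without replicate 4 of Glis3-Pax8Cre(ND) or replicate 2, 3 or 4 of Glis3-Pax8Cre(LID) (-1.47 to -0.83, adjusted p from 0.0663 to 0.142), and without Glis3-Pax8Cre(ND) replicate 4 alone it was -0.83 (adjusted p = 0.142). An edgeR fit of only the 8 Glis3-Pax8Cre mice also ended that call (-1.45, adjusted p = 0.0541). Cxcr3 fell in WT under the LID (-1.48, adjusted p = 0.00113), with 0.490 to 0.947 CPM in WT(ND) and 0.158 to 0.375 CPM in WT(LID), levels under 1 CPM in every WT mouse. Of 18 tested genes of the inducing cytokines and of NF-kB and interferon signalling, 1 rose and 7 fell in WT under the LID (backgrounds 20.9% and 20.8% of all genes), and 1 rose and 11 fell in Glis3-Pax8Cre (13.1% and 12.3%). Nfkbia, an NF-kB inhibitor that NF-kB itself induces, fell by 0.66 on the log2 scale in WT (SE 0.11, adjusted p = 0.000159) and by 0.61 in Glis3-Pax8Cre (SE 0.11, adjusted p = 0.000827). Il6, which rose in both, was at a mean of 0.0245 CPM in WT(ND) and 0.276 CPM in WT(LID).

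To show the letters that such regulation is known to use, the 250 bases before the start of genes on either side of the pattern are printed from RefSeq (build GRCm38.p6, 5′ to 3′ on the strand of the gene). Of the neighbours on chromosome 5, Cxcl10 fell under the LID in both genotypes and Cxcl9 in Glis3-Pax8Cre, while Ccl9 and Ackr2 rose in WT. Capitals mark matches to the NF-kB consensus, to the AP-1 motif TGANTCA and to the interferon-stimulated response element core GAAANNGAA, searched on both strands. Ccl9 and Ackr2 are shown because their windows alone held an NF-kB match among the members that rose in WT and have a window, as those of Ccl6, Ccl8, Ccl12, Ccl17, Cxcl12, Ackr1, Ackr3 and Ccr1 held none. Ccl2, Ccl7 and Cxcl17 had no entry in the table used. The regions are chr5:92328080-92328329 (minus strand) for Cxcl9, chr5:92348890-92349139 (minus) for Cxcl10, chr11:83578637-83578886 (minus) for Ccl9 and chr9:121898105-121898354 (plus) for Ackr2.
Cxcl9: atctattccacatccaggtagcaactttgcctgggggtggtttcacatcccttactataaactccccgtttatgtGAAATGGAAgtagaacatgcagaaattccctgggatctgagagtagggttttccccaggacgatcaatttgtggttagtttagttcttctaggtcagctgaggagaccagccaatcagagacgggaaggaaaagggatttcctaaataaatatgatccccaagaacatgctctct
Cxcl10: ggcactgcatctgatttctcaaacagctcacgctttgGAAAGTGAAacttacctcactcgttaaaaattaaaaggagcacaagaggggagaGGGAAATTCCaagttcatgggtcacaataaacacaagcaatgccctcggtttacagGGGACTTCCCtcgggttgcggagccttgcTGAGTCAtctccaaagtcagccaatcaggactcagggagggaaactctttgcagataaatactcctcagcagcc
Ccl9: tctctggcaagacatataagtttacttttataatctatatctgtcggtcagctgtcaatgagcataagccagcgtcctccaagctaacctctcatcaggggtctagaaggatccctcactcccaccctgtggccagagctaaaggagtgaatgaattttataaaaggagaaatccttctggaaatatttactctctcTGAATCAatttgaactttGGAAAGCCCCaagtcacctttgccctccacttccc
Ackr2: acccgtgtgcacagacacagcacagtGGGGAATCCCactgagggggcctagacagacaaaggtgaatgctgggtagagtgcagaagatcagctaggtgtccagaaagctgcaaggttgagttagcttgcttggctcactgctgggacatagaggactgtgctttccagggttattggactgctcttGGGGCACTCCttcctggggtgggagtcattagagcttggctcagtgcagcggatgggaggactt

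Cxcl9 holds 1 interferon element core from -175 to -167, counted back from the start of the gene. Cxcl10 holds another from -213 to -205, NF-kB matches from -159 to -150 and from -103 to -94, and an AP-1 match from -74 to -68. Ccl9 holds an NF-kB match from -35 to -26 and an AP-1 match from -53 to -47, and Ackr2 has NF-kB matches from -224 to -215 and from -64 to -55. Of 52 such windows of 45 member symbols, 9 held the NF-kB consensus, 6 the AP-1 motif, 8 the interferon element core, 0 the cyclic AMP element TGACGTCA and 2 the letters TGGGGGGT, the core bound by GLI-related zinc fingers. Over all 32851 windows of this length, the shares were 3.90%, 6.75%, 7.13%, 1.55% and 1.36%. A match of letters is a description and not a binding site.

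Ccl11, Ccl27a, Ccl28, Cxcl14 and Xcr1 also fell under the LID in 1 or both genotypes. Markers of other tissues fell in the same comparisons. All 3 parathyroid markers were called lower in both genotypes, with a sum of 6737 to 12405 CPM in WT(ND), 5535 to 8683 in Glis3-Pax8Cre(ND), 1631 to 3627 in WT(LID) and 354 to 3446 in Glis3-Pax8Cre(LID). All 5 adipocyte markers were called lower in WT, with a sum of 348 to 530.4 CPM in WT(ND) and 163 to 235 CPM in WT(LID), and none in Glis3-Pax8Cre. Of 5 thymic epithelial markers only Foxn1 was called lower, and of 5 fibroblast markers Pdgfra fell in both genotypes and Dcn in WT, while 3 collagen genes rose. No parathyroid, adipocyte or fibroblast marker was at 0 in a mouse. Their part in the falls of the chemokines was not tested. Ccl11, or eotaxin, the ligand of Ccr3 on eosinophils, was at 10.4, 11.3, 12.7 and 10.6 CPM in WT(ND), 13.2, 12.1, 13.7 and 8.97 in Glis3-Pax8Cre(ND), 9.06, 6.41, 9.31 and 7.29 in WT(LID) and 9.59, 9.13, 7.40 and 5.80 in Glis3-Pax8Cre(LID). It fell by small amounts, -0.49 (SE 0.17, adjusted p = 0.0334) in WT and -0.59 (SE 0.17, adjusted p = 0.0216) in Glis3-Pax8Cre. The first was lost without replicate 2 or 3 of WT(ND) or replicate 2 or 4 of WT(LID) (-0.48 to -0.39, adjusted p from 0.0597 to 0.113) and the second without replicate 1 or 3 of Glis3-Pax8Cre(ND) or replicate 3 or 4 of Glis3-Pax8Cre(LID) (-0.55 to -0.46, adjusted p from 0.0516 to 0.0618). An edgeR fit of only the 8 Glis3-Pax8Cre mice also ended the second (-0.59, adjusted p = 0.0762). Ccl27a, a ligand of Ccr10 made by epithelium, was at 6.36, 6.07, 6.99 and 6.34 CPM in WT(ND), 6.84, 7.12, 6.92 and 5.28 in Glis3-Pax8Cre(ND), 4.84, 4.58, 3.595 and 3.51 in WT(LID) and 4.02, 5.52, 3.96 and 4.61 in Glis3-Pax8Cre(LID). The WT groups did not overlap. The fitted log2 difference was -0.64 (SE 0.15, adjusted p = 0.00252) in WT and -0.53 (SE 0.15, adjusted p = 0.0153) in Glis3-Pax8Cre, and the second was lost with the replicate block in those 8 mice (-0.53, adjusted p = 0.0751, and -0.54, adjusted p = 0.0659 in the same 8 without a block). Ccl27a overlaps Il11ra1 on the opposite strand.

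Ccl28, another ligand of Ccr10, was at 3.49, 2.90, 2.85 and 1.99 CPM in WT(ND), 2.57, 2.67, 2.85 and 2.07 in Glis3-Pax8Cre(ND), 2.19, 3.37, 1.40 and 1.71 in WT(LID) and 0.454, 1.30, 1.84 and 1.11 in Glis3-Pax8Cre(LID). All Glis3-Pax8Cre(LID) mice were below all Glis3-Pax8Cre(ND) mice. The fall there of -1.11 (SE 0.35, adjusted p = 0.0290) was lost in the 11 libraries of low thymocyte RNA (-1.17, adjusted p = 0.0688) and without replicate 2 or 3 of Glis3-Pax8Cre(ND) or replicate 1 or 4 of Glis3-Pax8Cre(LID) (-1.08 to -0.84, adjusted p from 0.0508 to 0.0629). An edgeR fit of only the 8 Glis3-Pax8Cre mice also ended that call (-1.12, adjusted p = 0.0694). Cxcl14, a chemokine of epithelium and stroma without an agreed receptor, was at 8.11, 7.36, 14.1 and 11.1 CPM in WT(ND), 8.85, 7.43, 5.59 and 6.46 in Glis3-Pax8Cre(ND), 1.45, 1.98, 4.24 and 3.43 in WT(LID) and 2.92, 3.42, 1.88 and 1.63 in Glis3-Pax8Cre(LID). Its groups on the 2 diets did not overlap in either genotype. The log2 change was -1.88 (SE 0.33, adjusted p = 0.000372) in WT and -1.52 (SE 0.33, adjusted p = 0.00402) in Glis3-Pax8Cre, and both calls held in all alternatives. In the 11 libraries of low thymocyte RNA the WT value was -2.46 (adjusted p = 0.000347).

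Xcr1, which marks conventional dendritic cells that cross-present antigen, was at 2.33, 2.76, 1.26 and 2.38 CPM in WT(ND), 1.19, 0.878, 0.703 and 1.89 in Glis3-Pax8Cre(ND), 0.899, 0.804, 1.56 and 0.840 in WT(LID) and 0.648, 0.586, 0.433 and 0.861 in Glis3-Pax8Cre(LID). Its mean was highest in WT(ND), and the WT groups overlapped. The fall in WT under the LID was -1.09 (SE 0.33, adjusted p = 0.0159) and was lost without replicate 2 of WT(LID) (-0.98, adjusted p = 0.0508). Of the 5 dendritic cell markers none was called in that comparison, and they summed to 29.98 to 36.4 CPM in WT(ND) and 30.4 to 36.9 CPM in WT(LID).

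Ccl5, a ligand of Ccr1 made by T and NK cells, was at 0.575, 1.17, 0.664 and 1.70 CPM in WT(ND), 0.376, 1.33, 0.739 and 7.80 in Glis3-Pax8Cre(ND), 0.391, 0.258, 0.539 and 0.390 in WT(LID) and 0.298, 0.651, 0.223 and 0.738 in Glis3-Pax8Cre(LID). One library, Glis3-Pax8Cre(ND) replicate 4, was far above the rest. On the log2 scale the change in Glis3-Pax8Cre under the LID, -2.46 (SE 0.76, adjusted p = 0.0290), was -0.88 (adjusted p = 0.198) without that library, -1.19 (adjusted p = 0.125) in the 11 libraries of low thymocyte RNA and -1.77 (adjusted p = 0.0438) with the replicate block in those 8 mice and -2.43 (adjusted p = 0.137) in the same 8 without it. The call was lost without replicate 4 of Glis3-Pax8Cre(ND) or replicate 1 or 3 of Glis3-Pax8Cre(LID) (-2.28 to -0.88, adjusted p from 0.0718 to 0.198).

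Neighbouring chemokine genes did not all respond alike. In the cluster on chromosome 11 from 82035577 to 82179812 (mm10), which holds Ccl2, Ccl7, Ccl11, Ccl12, Ccl8 and Ccl1 in this order, 4 of the 5 tested genes rose and Ccl11 fell in WT under the LID. In Glis3-Pax8Cre 2 of the 5 rose and Ccl11 fell. In the second cluster on chromosome 11, from 83525779 to 83664683, Ccl9 and Ccl6 rose in WT, and Ccl5, Ccl3 and Ccl4 were not called. Cxcl9, Cxcl10 and Cxcl11, on chromosome 5 from 92321331 to 92363296, had negative log2 fold changes in both genotypes, and 2 of the 3 were called in WT and 3 in Glis3-Pax8Cre. On chromosome 8 from 94745684 to 94812036, Cx3cl1 fell and Ccl17 rose in WT, while Ccl22, the first gene there, was not called.

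**Figure D5:**
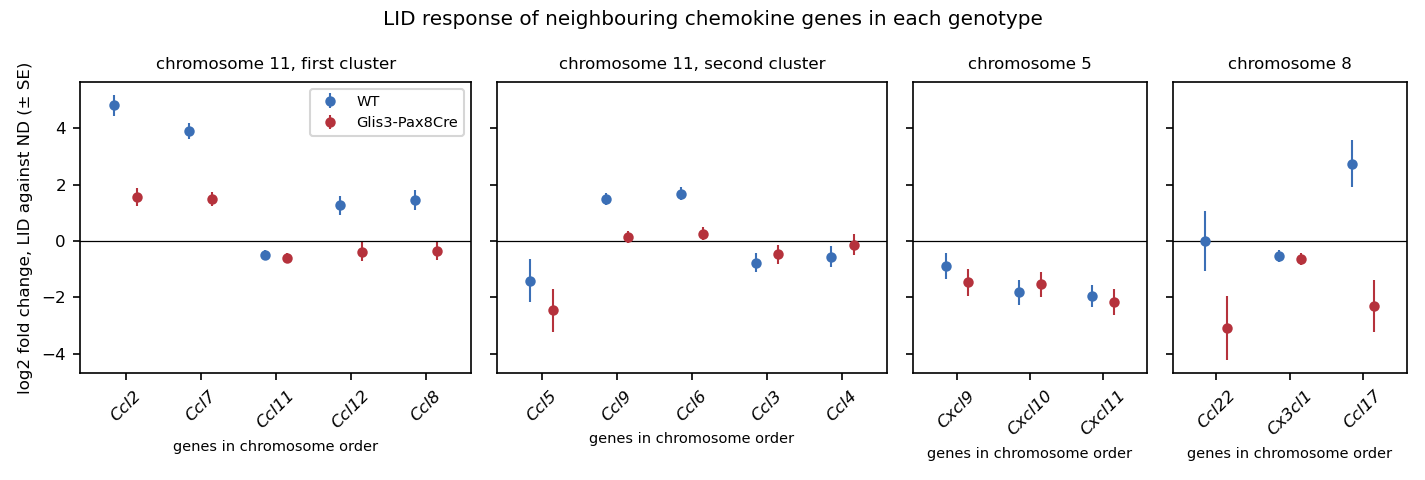
Log2 fold change of the LID against the ND (vertical, ± standard error) of the tested genes of 4 clusters in chromosome order (horizontal), for WT and Glis3-Pax8Cre mice, 4 per group. In the first cluster Ccl2 and Ccl7 stand highest in WT, at 4.82 and 3.91, next to Ccl11 at -0.49.

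Of the textbook pairs of ligand and receptor, 29 had both partners tested. In WT under the LID both partners were called in 8 pairs, in the same direction in 7. These were Ccr1 with Ccl6, Ccl7 and Ccl9 and Ackr3 with Cxcl12, which rose, and Cxcr3 with Cxcl10 and Cxcl11 and Cx3cr1 with Cx3cl1, which fell. Ackr3 rose while Cxcl11 fell. In Glis3-Pax8Cre both were called in 3 pairs, of which Cx3cr1 with Cx3cl1 fell together. Pairs share partners and are not independent. For Ccl2 and Ccl7, the receptor Ccr2 was not called, and for Ccl17 the receptor Ccr4 was at or under 0.932 CPM outside Glis3-Pax8Cre(ND) replicate 4.

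In all, 17 tested members, 7 ligands and 10 receptors, were called in no comparison. Besides those named, these were Ackr4, Ccl3, Ccl4, Ccl24, Ccr10, Cxcl1 and Cxcr2, whose group means lay between 0.0631 and 1.92 CPM. The neutrophil chemokines of the Cxcr2 axis were thus low throughout, Cxcl1 between 0.143 and 0.624 CPM and its receptor Cxcr2 between 0.0283 and 0.376 CPM. Of the 26 tested genes of receptor signalling, 7 rose and 3 fell in WT under the LID (backgrounds 20.9% and 20.8%) and 4 rose and 6 fell in Glis3-Pax8Cre (13.1% and 12.3%). Among the latter, Plcb2 and Arrb2 were highest in Glis3-Pax8Cre(ND) replicate 4, at 30.2 and 31.7 CPM, against 3.69 to 4.33 and 15.5 to 16.6 CPM in the other mice of that group. The part of the thymus RNA of that library in these falls was not tested. Gnai2, which encodes a G protein subunit downstream of chemokine receptors, rose in WT (0.49, SE 0.07, adjusted p = 9.57e-05) and was lower in Glis3-Pax8Cre(LID) (-0.31, SE 0.07, adjusted p = 0.00517). Of 8 related genes outside the family, Pf4 (a platelet and macrophage chemokine) and Cmklr1 (the chemerin receptor) rose and Ccrl2 and Cd74 fell in both genotypes under the LID. Cmklr1 rose from a mean of 9.60 to 16.02 CPM in WT and from 11.7 to 34.3 CPM in Glis3-Pax8Cre, with an interaction of 0.81 (SE 0.18, adjusted p = 0.00926).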

How the data were processed

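The members and gene lists were chosen with earlier results of these data known. Per the study's methods, RNA was sequenced on Illumina instruments of 2 models, and which library ran on which is not given in the sources used here. Pairs whose mean base quality exceeded 20 were aligned to mm10 with STAR 2.5, and the authors deposited raw counts per RefSeq gene from featureCounts 1.5.0-p1, without strand. From these counts, edgeR 4.0.16 (R 4.3.3; TMM scaling, filterByExpr, robust quasi-likelihood test) fitted all 16 mice with 1 mean per group, with Benjamini-Hochberg adjustment over 16630 genes. P-values measure the spread between mice. Alternatives included DESeq2 1.42.0, other scalings and filters, a replicate block and leaving out each mouse. Members with a call and a mean of 1 CPM in a group are given in full, except for 1 that is not reported here. The fit was tested on simulated counts. No replicates were duplicates, as counts of each of 24 within-group pairs differed beyond sampling noise. Deviations of same-numbered mice correlated between the Glis3-Pax8Cre groups (r 0.21 to 0.65), and not for every pair of other groups (r -0.58 to 0.17). The labels give a replicate number and no pairing, and replicate 4 held the most thymocyte RNA in both Glis3-Pax8Cre groups (2718 and 357 CPM). The part of that RNA in the correlations was not tested. Only these groups were given a replicate block of their own, in an added alternative fit that does not establish a pairing. The main fit, which gave every SE, had no replicate block. Exon lengths came from GENCODE M21.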

Additional observations from a re-analysis of the deposited data

Results flagged for a closer look

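In 10 of 108 groups of 4 mice 1 mouse stood apart, by a gap to the nearest other mouse over Dixon's critical share of the group's range, where chance alone marks about 1 in 20. In Glis3-Pax8Cre(ND) replicate 4, the library with the most thymocyte RNA, Ccl17 was at 1.80 CPM (others 0.108 to 0.188), Ccl5 at 7.80 CPM (others 0.376 to 1.33), Cxcl9 at 6.08 CPM (others 1.71 to 2.11) and Ccl27a at 5.28 CPM (others 6.84 to 7.12). Ccl9 was at 16.6 CPM in Glis3-Pax8Cre(ND) replicate 1 (others 10.3 to 11.1), and Cxcl11 at 0.288 CPM in Glis3-Pax8Cre(ND) replicate 3 (others 0.527 to 0.565). In Glis3-Pax8Cre(LID) replicate 4 Ccl2 was at 0.984 CPM (others 2.22 to 2.33) and Cxcr6 at 0.703 CPM (others 0.470 to 0.505). In WT(LID) Cxcl9 was at 0.960 CPM in replicate 4 (others 0.593 to 0.631) and Xcr1 at 1.56 CPM in replicate 3 (others 0.804 to 0.899).

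The LID response differed between genotypes, by edgeR's interaction at an adjusted p under 0.05, for 12 members. Of these 11 were lower and 1 higher (backgrounds 7.41% and 4.43% of all genes). Of 25 alternatives, 16 ended the call of Ackr3, 10 that of Ccl12 and 2 that of Ccl8. The log2 difference, Glis3-Pax8Cre minus WT, was -5.05 for Ccl17, -3.26 for Ccl2, -3.11 for Ackr2, -2.44 for Cxcl17, -2.42 for Ccl7, -2.09 for Ackr1, -1.81 for Ccl8, -1.65 for Ccl12, -1.43 for Ccl6, -1.35 for Ccl9, -0.66 for Ackr3 and 0.97 for Cxcl16.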

How the results depend on the processing

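Over 82 log2 fold changes and 2128 alternative values, 0 changed sign as a called value, 1960 kept their side of the threshold, 156 no longer passed it and 12 newly passed it. By the study's thresholds, an adjusted p below 0.01 with more than 2-fold change, 6 members were lower in WT under the LID, 1 was higher and 6 lower between genotypes under the LID, 3 were higher on the ND, 4 were lower in Glis3-Pax8Cre under the LID, and the interaction had 0 higher and 6 lower. Only that criterion, not the fit, differed, and edgeR's adjusted p under 0.05 gave 11, 3, 11, 8, 14, 1 and 11. With library size alone 6 were higher between genotypes under the LID. Under that scaling the log2 median over all genes went from -0.03 to -0.18 in WT and from -0.03 to -0.17 in Glis3-Pax8Cre under the LID, and between genotypes from 0.01 to 0.16 under the LID and from 0.02 to 0.14 on the ND. In fits of only the 8 mice compared, 5 were higher between genotypes under the LID, 3 were higher on the ND and 7 were lower in Glis3-Pax8Cre under the LID. In the 11 libraries of low thymocyte RNA, a setting added after seeing the data, 18 were lower in WT under the LID, 5 were higher between genotypes under the LID, 4 were higher and 1 lower on the ND, and 8 were lower in Glis3-Pax8Cre under the LID. The cause was not tested. Apart from the study's thresholds, the share of all genes called was not computed for the settings of this section. A count that moved, here or below, is therefore not a result about the members.

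Leaving out 1 mouse at a time, 13 to 14 members rose and 8 to 17 fell in WT under the LID (8 without WT(LID) replicate 2, 17 without Glis3-Pax8Cre(ND) replicate 4). Between genotypes, 3 to 4 were higher and 8 to 12 lower under the LID, and 4 to 8 higher and 3 to 6 lower on the ND (4 without WT(ND) replicate 1, 5 without WT(ND) replicate 4 or Glis3-Pax8Cre(ND) replicate 1, and 6 lower without Glis3-Pax8Cre(ND) replicate 4). In Glis3-Pax8Cre 4 rose and 8 to 18 fell (8 without Glis3-Pax8Cre(LID) replicate 3, 9 without Glis3-Pax8Cre(LID) replicate 1), and in the interaction 1 was higher and 9 to 11 lower.

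With a replicate block in the 8 Glis3-Pax8Cre mice, 4 members rose and 13 fell under the LID, and of the members named in full the calls of Ccl27a, Cx3cl1 and Cxcr6 alone were lost. The same 8 mice without the block gave 4 and 7, and also lost these 3, so the losses are not those of the block alone. That fit without the block lost the calls of Ccl5, Ccl11, Ccl28 and Cxcl9 as well. For all groups the labels give only a shared number. A block over all 16 mice gave 13 higher and 12 lower in WT under the LID, 4 and 9 between genotypes under the LID, 7 and 3 on the ND, and 1 and 9 in the interaction. Levels under 1 CPM rest on few counts in the shallowest library, where a count of 0 allows up to 0.216 CPM.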
